A study of Drosophila melanogaster with 10 samples.

Results

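The cytochrome P450 genes outside the Cyp4g subfamily were followed in the transcriptome of adult male oenocytes of *Drosophila melanogaster*, cells under the abdominal cuticle that make cuticular hydrocarbons. Members were all genes whose FlyBase symbol begins with Cyp and a digit, which gave 85 rows of 13986. Cyp4g1, Cyp4g15 and Cyp18a1 were left out, leaving 82 genes. Among these, Cyp1 and Cyp40 are cyclophilins, which fold proteins and share only the prefix, so they were set aside and 80 P450 genes remained. By clan, 38 belonged to CYP3, 30 to CYP4, 9 to the mitochondrial clan and 3 to CYP2. P450 genes that carry another kind of symbol, such as those of ecdysone synthesis, were outside the rule.

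P450 enzymes are heme proteins that insert an oxygen atom into lipids, hormones, toxins and other small molecules. Microsomal P450s of the CYP2, CYP3 and CYP4 clans take electrons from NADPH-P450 reductase, at times with cytochrome b5, and mitochondrial P450s take them from a ferredoxin. CYP3 genes, above all Cyp6 and Cyp9, and the mitochondrial Cyp12 genes are best known in insects for the metabolism of insecticides and plant toxins. Many CYP4 enzymes act on fatty acids, and Cyp4g1, not described here, carries out the last step of hydrocarbon synthesis in oenocytes.

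The flies had developed at 25°C and then spent 7 days as adults at 29°C, and polyadenylated RNA was sequenced from 2 libraries of each of 5 genotypes. All carried the oenocyte driver prom-E800-Gal4. In Ctrl it was combined with UAS-mCD8-GFP, in fru330035, fruTrip and fru105005 with an RNAi hairpin against fruitless (fru), each from a different stock, and in fruBOE with UAS-FruCOMB, which overexpresses the B isoform of Fru. The number of flies behind a library was not given in the sources used here, so p-values measure the spread between these libraries. Each genotype came from a separate transgenic stock, and the effect of the construct and that of the stock's other alleles cannot be told apart.

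The total of counts lay between 23415354 and 46840820 per library. The targeted gene, fru, was called lower only in fru105005 (log2 fold change −0.68, SE 0.08, adjusted p = 0.00013). It was called higher in fru330035 (0.57, SE 0.068, adjusted p = 5.2e-06), in fruTrip (1.03, SE 0.067, adjusted p = 6.7e-06) and in fruBOE (4.34, SE 0.037, adjusted p = 2.5e-16), so hairpin lines are named here by their labels. These values are transcript levels of fru, and its protein was not measured in these libraries. The study reported loss of Fru protein staining in oenocytes under fru RNAi. Of 12 oenocyte genes 11 were found, and all were above 0 in every library. Their summed level, most of it Cyp4g1, was 63316 and 63767 in Ctrl, 14813 and 14860 in fru330035, 43865 and 44109 in fruBOE, and 76753 to 91762 in the other hairpin lines, on the scale of TMM values, that is, TPM rescaled between libraries. Marker sums of other tissues also moved with genotype. A list of 33 gut genes summed to 156 and 182 in Ctrl, with 216 in replicate 1 and 1485 in replicate 2 of fruTrip, and 218 and 1111 in fru105005. Gut sums were 244 and 249 in fru330035 and 347 and 554 in fruBOE, so every genotype lay above Ctrl. The sum over 10 Malpighian tubule genes, another tissue rich in P450s, was 10.7 to 11.4 in Ctrl and 18.2 to 31.3 in the other libraries. For 10 fat body genes the sums were 586 to 590 in Ctrl, 459 to 482 in fru330035, 655 to 672 in fruBOE and 1093 to 1180 in the other hairpin lines. The median log2 fold change of the fat body genes tested was −0.45 in fru330035, −0.01 in fruTrip, 0.72 in fru105005 and 0.09 in fruBOE. The fat body sums of fruTrip and fruBOE thus rose without a like rise of the median gene. For 10 muscle genes the sums were 814 to 823 in Ctrl and 961 to 1759 elsewhere. For 7 accessory gland genes they were 23.1 to 26.7 in Ctrl, 83.9 to 109 in fru330035 and fruTrip, and 18.9 to 28.1 in the other genotypes. The part of these tissues in the P450 results was not tested. In bulk RNA, fewer cells of a type and less RNA per cell cannot be told apart.

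In control oenocytes the P450 genes spanned a wide range of levels. Cyp6w1 (mean TMM value 218, SD 3.63, n = 2), Cyp6g1 (163, SD 4.04) and Cyp6d5 (134, SD 1.19) led, all of the CYP3 clan, followed by Cyp4e2 (48.0), Cyp9f2 (37.4) and Cyp28d1 (35.0). Cyp6g1 is known for resistance to DDT when it is overexpressed. Counted over all 80 members, 3 had a control mean above 100, 27 one of 10 to 100, 34 of 1 to 10 and 16 under 1. The median member stood at 6.54, against 4.28 over all genes. The 4 highest members made up 44.6% of the summed P450 level in Ctrl.

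The summed level of the 80 genes was lowest in Ctrl, at 1257 and 1268. It was 1890 and 1875 in fru330035, 1806 and 1772 in fruTrip, 3057 and 3026 in fru105005, and 2069 and 2060 in fruBOE. No other genotype overlapped Ctrl, and the replicates of fruTrip and fru105005 lay close to each other, while their gut sums differed. Relative to Ctrl the mean sum was 1.49-fold in fru330035, 1.42-fold in fruTrip, 2.41-fold in fru105005 and 1.64-fold in fruBOE. A few genes weighed heavily in these sums, and without Cyp6d5, Cyp6g1, Cyp6w1 and Cyp4p2 they were 744 and 747 in Ctrl, 930 and 919 in fru330035, 1111 and 1104 in fruTrip, 1631 and 1612 in fru105005, and 1315 and 1313 in fruBOE. With 2 libraries a genotype, an exact two-sided permutation test cannot give a p below 0.333, so no test was made of these sums.

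**Figure D1:**
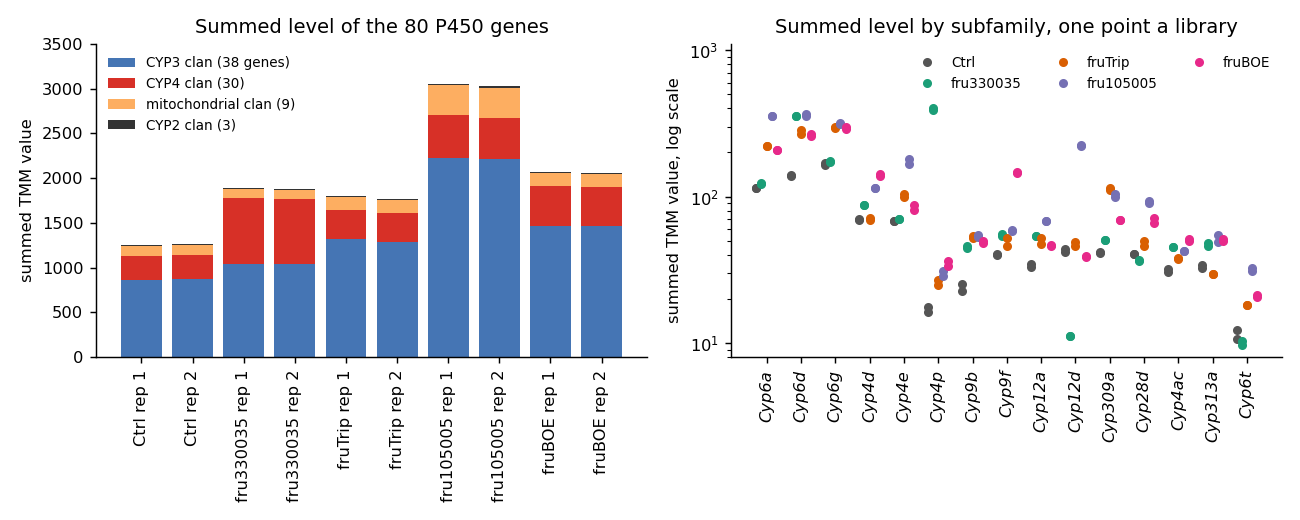
Left, TMM values summed over the 80 P450 genes in each of the 10 libraries, with colours for the 4 clans. Right, the sum by subfamily on a log scale, each point a library, with Cyp4p near 400 only in fru330035 (401 and 391) and Cyp12d at 11.1 and 11.2 there.

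Each genotype was compared with Ctrl by edgeR's quasi-likelihood test, and genes with an adjusted p under 0.05 were called. In fru330035, 38 of the 76 members tested were called higher and 17 lower, while 31.7% of all genes tested were called higher and 30.6% lower. The members' median log2 fold change was 0.28, against −0.01 over all genes. In fruTrip, 47 of 75 members were called higher and 9 lower, beside 26.0% and 23.9% of all genes, with a median of 0.56 against −0.02. In fru105005, 50 of 75 were called higher and 8 lower, beside 26.0% and 26.7% of all genes, with a median of 0.71 against −0.01. The 8 lower calls became 3 without either Ctrl library, 4 without fru105005 replicate 1 and 2 with DESeq2. In fruBOE, 44 of 75 were called higher and 11 lower, beside 31.4% and 33.7%, with a median of 0.49 against 0.04. The hairpin lines and the overexpression line thus shared the direction of the median, and all 4 comparisons share the same control libraries. The low-count filter let 73 members into all 4 comparisons, and Cyp308a1, Cyp313a5 and Cyp6a16 into none.

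Under scaling by library size alone the members kept more higher than lower calls in each comparison with Ctrl, 50 against 12 in fru330035, 41 against 15 in fruTrip, 46 against 8 in fru105005 and 53 against 7 in fruBOE. That scaling moved the median of all genes to 0.21, −0.18, −0.10 and 0.21, respectively.

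By clan, the higher and lower calls of CYP3 were 19 and 9 of 36 members tested in fru330035, 27 and 1 of 35 in fruTrip, 27 and 3 of 35 in fru105005, and 26 and 4 of 35 in fruBOE. The median log2 fold changes of CYP3 were 0.31, 0.81, 0.87 and 0.73. CYP4 had 15 and 4 calls of 28 in fru330035, 13 and 6 of 28 in fruTrip, 16 and 4 of 28 in fru105005, and 13 and 4 of 28 in fruBOE, with medians of 0.35, 0.23, 0.35 and 0.25. The 9 mitochondrial members had 3 and 3, 5 and 1, 6 and 0, and 4 and 3. The count of 0 lower in fru105005 was also 0 at an unadjusted p under 0.05 by edgeR and 0 by DESeq2. Over all genes tested the shares called higher and lower were 31.7% and 30.6%, 26.0% and 23.9%, 26.0% and 26.7%, and 31.4% and 33.7%. Near these shares lay the lower calls of the mitochondrial clan in fru330035 (33.3%) and fruBOE (33.3%). Those of CYP4 in fruTrip (21.4%) and the higher calls of the mitochondrial clan in fru330035 (33.3%) did too.

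**Figure D2:**
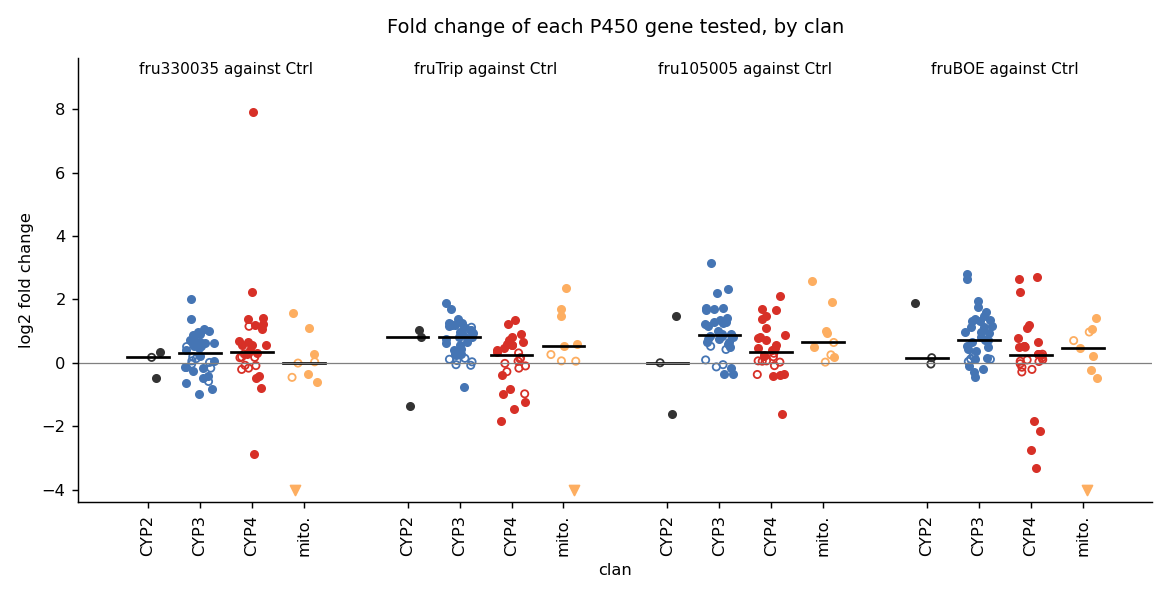
Log2 fold change (vertical axis) of each P450 gene tested, by clan, in the 4 comparisons with Ctrl. Filled points were called and open points were not. Each bar marks the median of the P450 genes of that clan that were tested. Triangles at the bottom stand for Cyp12d1-d, which lay below the axis in 3 comparisons. Cyp316a1, with at most 1 count in a Ctrl library, is not drawn but enters the median. Cyp4p2 stands apart at 7.90 in fru330035.

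Few members passed the stricter threshold for differentially expressed genes (DEGs), which asked for a change of 4-fold or more at an adjusted p no higher than 0.001. In fru330035, 2 members were DEGs above Ctrl and 2 below, where 1.69% and 1.08% of all genes tested were. In fruTrip there was 1 in each direction, beside 1.05% and 0.698% of all genes. In fru105005, 5 were above and 0 below, beside 0.619% and 0.732%, and the 0 held for edgeR's unadjusted p and for DESeq2. In fruBOE, 5 were above and 4 below, beside 1.34% and 2.79%. Of the DEGs in fruBOE, Cyp6a18 and Cyp4s3 passed the low-count filter only through fruBOE, and Cyp313a2 and Cyp4c3 only through Ctrl. All DEGs are described below with the subfamily they belong to.

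The Cyp6a subfamily had 13 members, of which 8 form a run of 9 genes with Cyp317a1 on chromosome arm 2R (2R:14871366-14903095 on the BDGP6 assembly, from Cyp6a22 to Cyp317a1). Cyp6a genes called higher were 11 of 11 tested in fruTrip, 11 of 12 in fru105005, 10 of 12 in fruBOE and 7 of 12 in fru330035. Of all genes tested, 26.0%, 26.0%, 31.4% and 31.7% were called higher in these comparisons, respectively. The summed Cyp6a level was 114 in both Ctrl libraries, 121 to 123 in fru330035, 221 to 222 in fruTrip, 354 to 355 in fru105005 and 207 to 208 in fruBOE. In fru330035, 3 genes of the run, Cyp6a8, Cyp6a9 and Cyp6a23, were called lower and 4 of its 9 genes higher. In fruTrip all 9 genes of the run were called higher, with log2 fold changes of 0.24 to 1.88.

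Cyp6a8, a gene induced by barbiturates and caffeine, stood at 25.7 and 25.0 in Ctrl, 14.6 and 13.9 in fru330035, 38.5 and 36.1 in fruTrip, 131 and 129 in fru105005, and 61.8 and 59.7 in fruBOE. All 5 genotypes were apart from each other. It fell in fru330035 (log2 fold change −0.82, SE 0.052, adjusted p = 5.6e-09) and rose in fruTrip (0.56, SE 0.048, adjusted p = 3.6e-05), fruBOE (1.13, SE 0.039, adjusted p = 8.4e-11) and fru105005 (2.33, SE 0.03, adjusted p = 2.7e-10), where it was a DEG. Cyp6a2, which is also inducible by xenobiotics and is overexpressed in strains that resist DDT, stood at 4.53 and 4.82 in Ctrl, 7.94 and 7.65 in fru330035, 8.39 and 9.77 in fruTrip, 42.0 and 43.4 in fru105005, and 10 and 10.1 in fruBOE. It rose in every genotype and most in fru105005 (3.16, SE 0.063, adjusted p = 2e-09), again a DEG. Cyp6a20, known from work on male aggression, went from 7.67 and 7.68 in Ctrl to 36.6 and 35.1 in fru105005 (2.20, SE 0.058, adjusted p = 9.5e-09, a DEG). Cyp6a23 rose in fruTrip (1.88), fru105005 (1.72) and fruBOE (1.48) and stood near Ctrl in fru330035 (−0.18, adjusted p = 0.044), a call that was lost without any 1 of the 4 libraries and with DESeq2, while library size alone gave 0.04. Cyp6a18 was a DEG in fruBOE (2.63, SE 0.41, adjusted p = 0.00013), on counts of only 27 and 42 against 4 and 6 in Ctrl. With so few counts in Ctrl, it entered the Cyp6a tallies of fru330035, fru105005 and fruBOE only through its counts in those lines. Cyp6a9 and Cyp6a19 overlap on the chromosome, and Cyp6a2 overlaps Epac, so their counts are less certain.

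Cyp6w1, the P450 gene with the highest control level, moved in opposite directions between hairpin lines. Its TMM values were 216 and 221 in Ctrl, 109 and 109 in fru330035, 128 and 125 in fruTrip, 757 and 752 in fru105005, and 217 and 216 in fruBOE. Only fruBOE overlapped Ctrl. The log2 fold changes were −0.99 in fru330035 (SE 0.022, adjusted p = 7.2e-14), −0.75 in fruTrip (SE 0.021, adjusted p = 5.8e-08) and 1.73 in fru105005 (SE 0.02, adjusted p = 2.1e-10). In fruBOE the change was −0.09 (adjusted p = 0.002), with 0.08 under library size alone, and limma on the TMM values did not call it, so its sign rested on the scaling. In fru105005, Cyp6w1 made up 24.8% of the summed P450 level.

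Cyp6d5 behaved more evenly, with 135 and 134 in Ctrl, 348 and 345 in fru330035, 276 and 257 in fruTrip, 357 and 348 in fru105005, and 261 and 250 in fruBOE. Every genotype lay above Ctrl, with log2 fold changes of 1.38 (SE 0.021, adjusted p = 1.3e-15), 0.98 (SE 0.031, adjusted p = 1.1e-07), 1.36 (SE 0.022, adjusted p = 6.3e-10) and 0.80 (SE 0.025, adjusted p = 4e-11). Its host locus, rdx, which overlaps it, had means of 28.6 to 38.4. The log2 fold changes of rdx were −0.33 in fru330035, −0.42 in fru105005 and −0.22 in fruBOE, all called lower. In fruTrip rdx was not called (0.02). The part of rdx reads in the values of Cyp6d5 was not tested. Cyp6d2 and Cyp6d4 were also called higher in the 3 hairpin lines. Cyp6g1 stood at 160 and 165 in Ctrl, 168 and 171 in fru330035, 290 and 286 in fruTrip, 312 and 314 in fru105005, and 275 and 280 in fruBOE. The change was small in fru330035 (0.07, SE 0.022, adjusted p = 0.013), where it was not called by limma on the TMM values, without Ctrl replicate 1 (0.04) or without fru330035 replicate 2 (0.06), and lay between 0.64 and 0.92 elsewhere. Cyp6g2, which overlaps Cyp6g1, reached 16.2 and 15.9 in fruBOE from 4.05 and 4.50 in Ctrl (1.77, SE 0.076, adjusted p = 6.9e-10).

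Among the 6 Cyp9 genes, Cyp9c1, Cyp9f2 and Cyp9f3 had their highest mean in fruBOE, Cyp9b2 in fruTrip (51.1, where its libraries overlapped those of fru105005), and Cyp9b1 (2.82) and Cyp9h1 (23.9) in fru105005. Cyp9f2 stood at 37.4 in both Ctrl libraries, 49.4 and 48.7 in fru330035, 42.5 and 48.9 in fruTrip, 54.7 and 53.7 in fru105005, and 123 in both fruBOE libraries. The log2 fold change in fruBOE was 1.59 (SE 0.029, adjusted p = 2.5e-13), against 0.28 to 0.51 in the hairpin lines. The value of 0.28 in fruTrip was not called without either Ctrl library. Its neighbour Cyp9f3 went from 2.73 and 3.12 in Ctrl to 20.4 and 23.8 in fruBOE, a DEG (2.79, SE 0.099, adjusted p = 1.1e-10), and was 3.15 to 5.85 in the hairpin lines. Sol1, which overlaps Cyp9f3, also had its highest mean in fruBOE, at 2.20 against 0.350 in Ctrl. Cyp9c1 reached 47.0 and 46.1 in fruBOE from 10.5 and 11.7 (1.94, SE 0.054, adjusted p = 1.1e-11). Of the 6 Cyp9 genes tested, 5 were called higher in fru330035, 4 in fruTrip, 6 in fru105005 and 5 in fruBOE, with 0 lower calls by edgeR in each, also 0 at an unadjusted p under 0.05 and 0 by DESeq2. Of all genes tested, 31.7%, 26.0%, 26.0% and 31.4% were called higher and 30.6%, 23.9%, 26.7% and 33.7% lower, respectively.

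Among smaller CYP3 families, Cyp309a2 rose most in fruTrip, from 19.8 and 19.1 in Ctrl to 64.3 and 62.9 (1.71, SE 0.04, adjusted p = 2.3e-08), and its neighbour Cyp309a1 from 21.9 and 22.2 to 50.8 and 47.6 (1.16, SE 0.047). Both also rose in fru105005 (1.24 and 1.30) and fruBOE (0.49 and 0.71). Cyp28d1 stood at 34.6 and 35.3 in Ctrl and at 86.5 and 88.3 in fru105005 (1.30, SE 0.031, adjusted p = 5.1e-09), whereas its change in fru330035 was −0.13 (adjusted p = 0.0095), was not called without fru330035 replicate 1 (−0.10) or with DESeq2, and turned to 0.08 under library size alone.

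**Figure D3:**
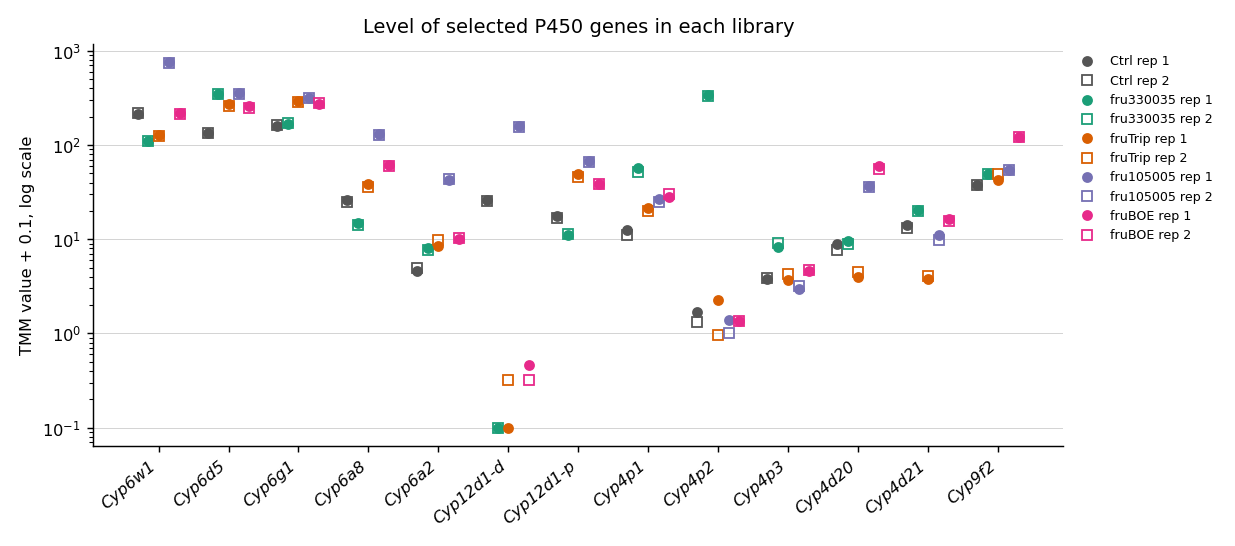
TMM value plus 0.1 (log axis) of 13 P450 genes in every library, with filled circles for replicate 1, open squares for replicate 2 and colours for genotypes. Replicates lie close together apart from low values such as those of Cyp4p2 and Cyp12d1-d in fruTrip, Cyp4p2 is high only in fru330035 (336 and 330), and Cyp12d1-d is at or near 0 in fru330035, fruTrip and fruBOE.

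In the CYP4 clan the largest change was that of Cyp4p2 in fru330035. Its TMM values were 1.60 and 1.23 in Ctrl, 336 and 330 in fru330035, 2.16 and 0.872 in fruTrip, 1.30 and 0.919 in fru105005, and 1.27 and 1.25 in fruBOE. The counts were 65 and 63 in Ctrl and 19722 and 26808 in fru330035. Only fru330035 stood apart (log2 fold change 7.90, SE 0.052, adjusted p = 1.8e-19), and the other lines were not called (adjusted p of 0.27 to 0.82), though without replicate 2 of fruTrip that line was (0.62). The 3 Cyp4p genes lie next to each other (2R:9237512-9244410) within hig, a gene of the synaptic matrix. Cyp4p1 rose in fru330035 from 12.5 and 11.1 to 56.7 and 51.9, a DEG (2.22, SE 0.061, adjusted p = 6.1e-13), and Cyp4p3 from 3.68 and 3.81 to 8.22 and 8.95 (1.21, SE 0.093, adjusted p = 4.9e-08). The host gene hig rose as well in fru330035, from a mean of 0.165 to 1.40 (3.07, adjusted p = 5.5e-08), and in no other line. Cyp4p1 was also called higher in the other lines (0.80 to 1.18), where Cyp4p2 was not. Cyp4p2 was the highest P450 gene of fru330035 after Cyp6d5 and made up most of the rise of its CYP4 sum, from 264 and 268 in Ctrl to 739 and 727.

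The 6 Cyp4d genes differed in direction. Cyp4d21, also named sex-specific enzyme 1 and known for its male-biased expression and its part in courtship, stood at 14.1 and 13.2 in Ctrl, 20.3 and 19.7 in fru330035, 3.72 and 3.93 in fruTrip, 11.0 and 9.74 in fru105005, and 16.3 and 15.7 in fruBOE. It fell in fruTrip (−1.84, SE 0.085, adjusted p = 8.9e-07) and fru105005 (−0.42, SE 0.079, adjusted p = 0.0021), rose in fru330035 (0.56, SE 0.055, adjusted p = 6.9e-07) and was not called in fruBOE (0.10, adjusted p = 0.16), where library size alone (0.28) and limma called it higher. Cyp4d20 went from 8.89 and 7.51 in Ctrl to 36.3 and 35.6 in fru105005 (2.11, SE 0.079, adjusted p = 8.6e-08) and 59.3 and 56.0 in fruBOE (2.69, SE 0.064, adjusted p = 2.5e-12), a DEG in both. In fruTrip it was 3.86 and 4.37 (−1.0, SE 0.12, adjusted p = 0.00026). Svil, which overlaps Cyp4d20, had means of only 23.5 to 32.2 across genotypes. Cyp4d1 rose in fru330035 (1.2) and fell in fruTrip (−0.82, SE 0.24, adjusted p = 0.022), where its replicates stood at 2.04 and 3.50, and this fall was not called without either Ctrl library (−0.85 and −0.79) or by limma. Cyp4d2 rose in all 4 comparisons by 0.30 to 0.71.

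The Cyp4e genes were higher in fruTrip and fru105005, with 3 of 3 called in both. Cyp4e2 rose to 132 and 122 in fru105005 from 48.6 and 47.5 (1.38, SE 0.039, adjusted p = 1.4e-08) and fell to 35.3 and 36.0 in fru330035 (−0.42, SE 0.034, adjusted p = 9.1e-08). Cyp4e1 reached 19.3 and 19.2 in fruTrip and 24.6 and 24.4 in fru105005 from 7.95 and 7.27 in Ctrl, and fell to 2.11 and 2.44 in fruBOE (−1.85, SE 0.12, adjusted p = 3e-08). It overlaps Mal-A1, a maltase on the gut list, and the part of that gene's reads in its values was not tested. Cyp4e3, linked to pyrethroid tolerance in the Malpighian tubule, rose in all 4 comparisons (0.53 to 1.07), and its highest values, 26.7 and 25.9, were in fru330035 against 11.8 and 13.3 in Ctrl. The Malpighian tubule sum was above Ctrl in all 4 genotypes too, and its part in this result was not tested.

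Cyp4ac3 was highest in fruBOE, with 18.9 and 18.3 against 2.48 and 2.94 in Ctrl (2.64, SE 0.092, adjusted p = 9.9e-11, a DEG), and also rose in fru105005 (1.71) and fru330035 (1.40). Its neighbours Cyp4ac1 and Cyp4ac2 in the tkv locus were not called in fruBOE (0.05 and −0.03), although Cyp4ac1 was under library size alone (0.22) and with limma. Cyp4aa1 rose in all 4 comparisons, most in fru330035, where it stood at 62.3 and 61.3 against 22.7 and 24.6 (1.39, SE 0.037, adjusted p = 3.9e-13). Strn-Mlck, which overlaps Cyp4aa1, had means of 194 in Ctrl and 81.5 in fru330035 (−1.06). The part of Strn-Mlck reads in the values of Cyp4aa1 was not tested. Lower DEGs of the clan had low counts. Cyp313a3 fell in fruBOE to 6 and 20 counts from 105 and 132 (−3.33, SE 0.29, adjusted p = 6.9e-07) and Cyp313a2 to 7 and 7 from 29 and 28 (−2.14, SE 0.42, adjusted p = 0.00078). Cyp4c3 had 22 counts in each Ctrl library, 2 and 7 in fru330035 (−2.87, SE 0.52, adjusted p = 0.00027) and 4 and 3 in fruBOE (−2.74, SE 0.52, adjusted p = 0.00058). Cyp4s3 was a higher DEG in fruBOE on 21 and 48 counts against 4 and 9 (2.23, SE 0.43, adjusted p = 0.0007). Cyp316a1, with 1 and 0 counts in Ctrl, had 35 and 12 in fruTrip (TMM values 1.05 and 0.463). The mean of these fruTrip libraries was at least 9.29-fold above Ctrl, taking 3 counts per library as the floor for Ctrl. Replicate 2 alone lay below that mean, and too few counts were left to test Cyp316a1 without replicate 1.

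The mitochondrial Cyp12 genes held the largest fall. Cyp12d1-p and Cyp12d1-d are near-identical copies side by side (2R:11117225-11125647), induced by insecticides and known to vary in copy number between strains, so reads can be split between them. Cyp12d1-d had 1085 and 1306 counts in Ctrl, 0 and 0 in fru330035, 0 and 7 in fruTrip, 7569 and 6347 in fru105005, and 13 and 13 in fruBOE. It was thus at or near 0 in 3 genotypes and several times above Ctrl in the fourth. Its TMM values were 26.2 and 25.1 in Ctrl and 158 and 154 in fru105005 (2.58, SE 0.031, adjusted p = 2.3e-10). In fru330035 it was at least 552-fold lower than in Ctrl, at a floor of 3 counts per library (adjusted p = 1.3e-14), and it was also a lower DEG in fruTrip (adjusted p = 7.2e-07) and fruBOE (−6.64, SE 0.12, adjusted p = 2.8e-13).

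Cyp12d1-p did not follow its copy. It stood at 17.7 and 16.9 in Ctrl, 11.1 and 11.2 in fru330035, 48.9 and 45.5 in fruTrip, 66.9 and 66.4 in fru105005, and 38.1 and 38.8 in fruBOE. It fell in fru330035 (−0.61, SE 0.058, adjusted p = 4.9e-07) and rose in fruTrip (1.46, SE 0.052, adjusted p = 2.2e-07), fru105005 (1.91, SE 0.04, adjusted p = 2.8e-09) and fruBOE (1.05, SE 0.045, adjusted p = 7e-10). The sum of both copies, which does not depend on how reads were split, was 43.9 and 42.0 in Ctrl, 11.1 and 11.2 in fru330035, 48.9 and 45.7 in fruTrip, 225 and 221 in fru105005, and 38.5 and 39.0 in fruBOE. On the sum, fruTrip and fruBOE lay close to Ctrl (1.10-fold and 0.903-fold), while fru330035 was at 0.260-fold and fru105005 at 5.19-fold.

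Of the other mitochondrial members, Cyp12a5 rose in fru330035 to 22.1 and 22.6 from 7.68 and 7.42 (1.58, SE 0.058, adjusted p = 1.4e-11). Cyp12c1 rose in fruBOE to 18.8 and 17.7 from 6.36 and 6.57 (1.41, SE 0.071, adjusted p = 3.7e-09). Cyp49a1 was a higher DEG in fruTrip, on 72 and 59 counts against 16 and 15 (2.37, SE 0.27, adjusted p = 0.0002). Galphao, which overlaps Cyp49a1, had means of 8.43 in Ctrl and 9.97 in fruTrip (0.26). Ak6, which overlaps Cyp301a1, had means of 4.77 to 9.97 across genotypes. The part of Galphao and Ak6 reads in the values of Cyp49a1 and Cyp301a1 was not tested. Cyp301a1, known for its part in cuticle formation, had low levels, with TMM values of 0.378 and 0.233 in Ctrl, 0.694 and 0.577 in fru330035, 0.890 and 1.07 in fruTrip, 0.346 and 0.385 in fru105005, and 0.862 and 0.473 in fruBOE. It was called higher in fruTrip (1.69, SE 0.34, adjusted p = 0.0046) and in fru330035 (1.09, SE 0.34, adjusted p = 0.013), the latter not without Ctrl replicate 2 (0.74), without fru330035 replicate 1 (0.97) or with DESeq2.

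In the CYP2 clan, Cyp304a1 was the only member called lower in all 3 hairpin lines. It stood at 5.53 and 6.02 in Ctrl, 3.92 and 4.31 in fru330035, 2.45 and 2.0 in fruTrip, 2.23 and 1.57 in fru105005, and 6.26 and 6.08 in fruBOE. Each hairpin line lay below Ctrl and fruBOE did not. The log2 fold changes were −0.48 (SE 0.099, adjusted p = 0.00086), −1.37 (SE 0.14, adjusted p = 0.00011) and −1.62 (SE 0.17, adjusted p = 5.8e-05). The gene grsm, which overlaps Cyp304a1, had a mean of 55.5 in Ctrl. Its log2 fold changes were −0.52 in fru330035, 0.03 in fruTrip and 0.56 in fru105005. The part of grsm reads in the values of Cyp304a1 was not tested. Cyp305a1 rose in the 3 hairpin lines (0.33, 1.03 and 1.46), the first of these not called by DESeq2, and Cyp303a1, needed for sensory bristles, rose in fruBOE (1.87, SE 0.18, adjusted p = 1.5e-06).

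**Figure D4:**
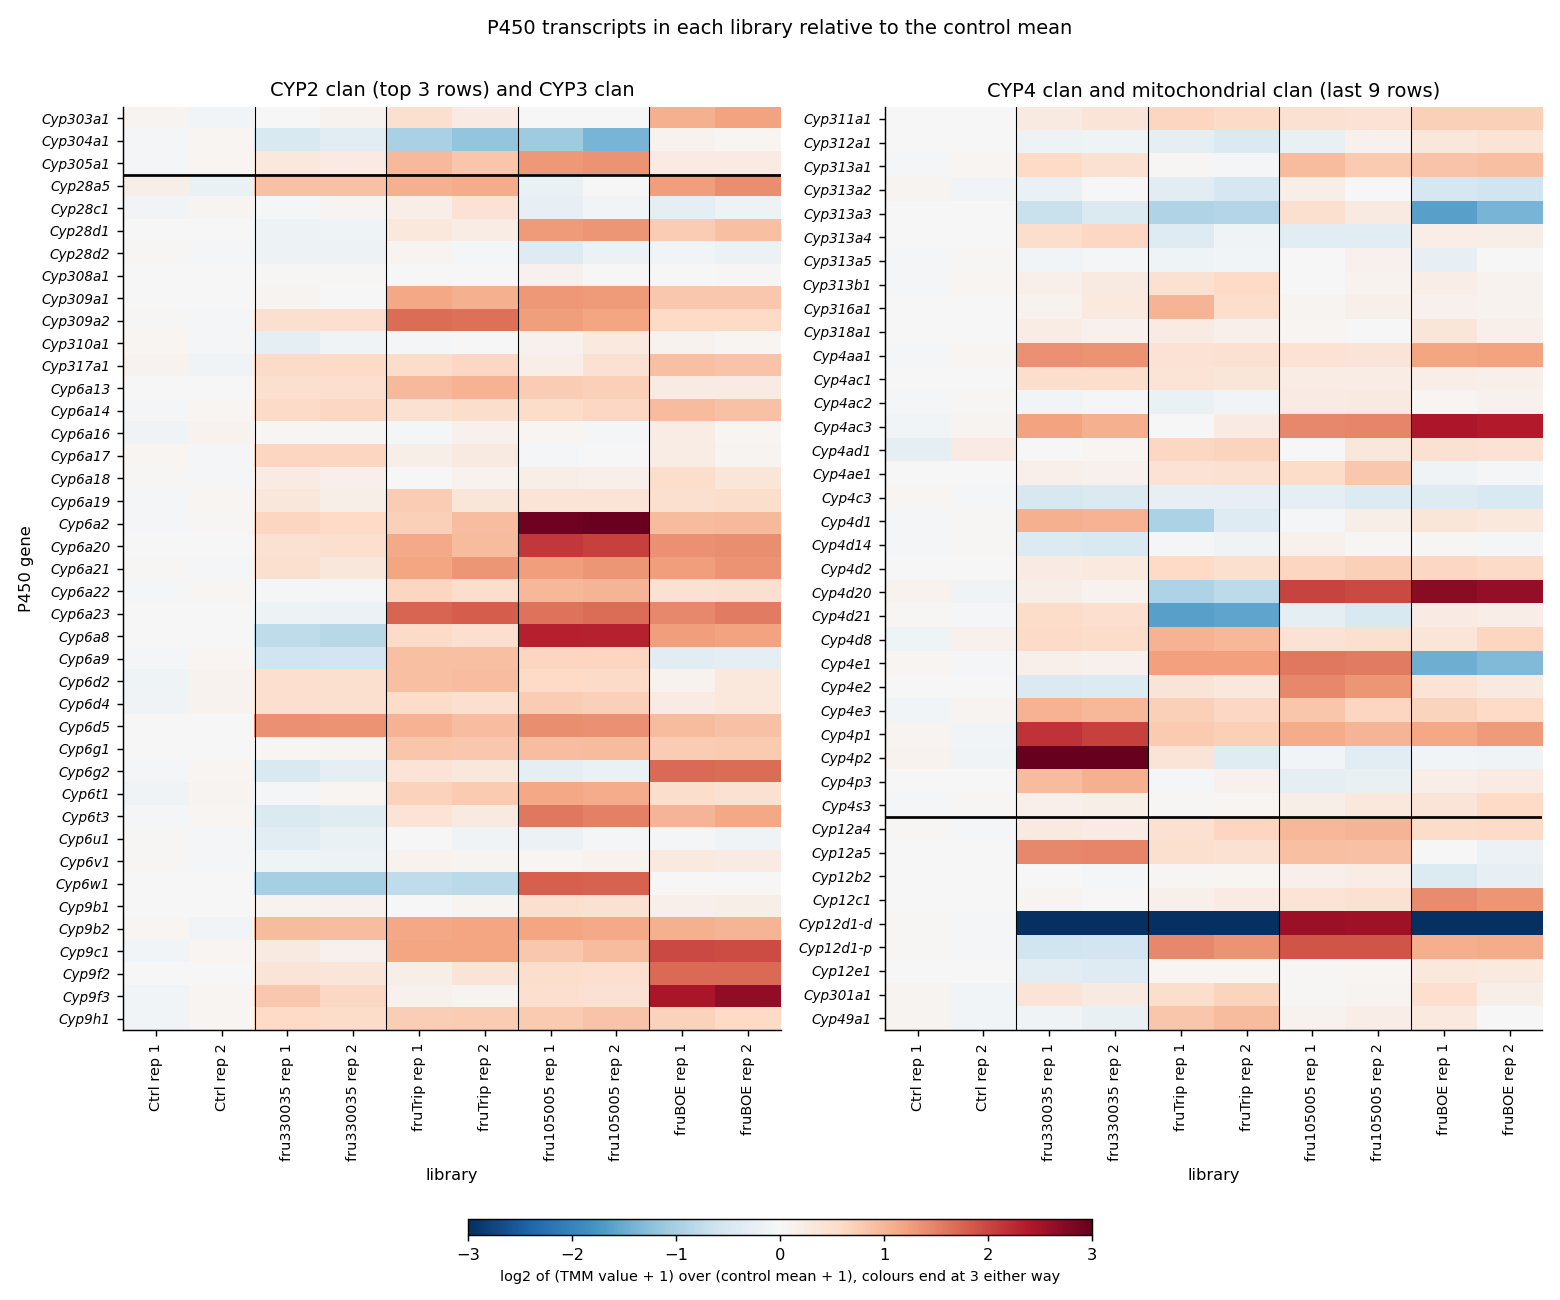
Each of the 80 P450 genes (rows, by clan and subfamily) in each of the 10 libraries (columns), as log2 of the TMM value plus 1 over the control mean plus 1. Red is above Ctrl and blue below, with colours ending at 3, and Cyp4p2 in fru330035 and Cyp12d1-d in 3 genotypes reach the ends of the scale.

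Across the 4 comparisons, 19 members were called higher in all and 0 lower in all, with 1 lower in all 3 hairpin lines (Cyp304a1). Of the 77 members tested in at least 1 comparison these were 24.7%, 0% and 1.30%, and over all 11947 such genes the shares were 7.66%, 9.27% and 11.4%. The 0 was also 0 by DESeq2 and was 1, Cyp4c3, at edgeR's unadjusted p under 0.05. The 19 were Cyp309a2, Cyp6a2, Cyp6a13, Cyp6a14, Cyp6a20, Cyp6a21, Cyp6d5, Cyp6g1, Cyp9b2, Cyp9c1, Cyp9f2 and Cyp9h1 of the CYP3 clan, Cyp311a1, Cyp4aa1, Cyp4d2, Cyp4d8, Cyp4e3 and Cyp4p1 of CYP4, and Cyp12a4. A further 22 were called higher in at least 1 and lower in at least 1 comparison, which was 28.6% of the 77, beside 21.5% of all genes. Ctrl held the lowest mean of the 5 genotypes for 39 of the 77 members (50.6%, beside 22.9% of all genes) and the highest for 2, Cyp6u1 and Cyp4c3 (2.60%, beside 18.7%). Over all 80 members the highest mean was in fru105005 for 30 genes, in fruBOE for 22, in fruTrip for 15 and in fru330035 for 11. As the same control libraries entered all 4 comparisons, an error in Ctrl would move all of them together.

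Set against each other, the hairpin lines differed at many P450 genes. In fru330035 against fruTrip, 18 of 76 members were called higher and 39 lower, beside 26.6% and 25.1% of all genes tested, with a median of −0.24. Under library size alone these counts were 36 and 21, the members' median was 0.13 and that of all genes 0.39. The members' median was thus below that of all genes under either scaling (−0.24 beside 0.02 with TMM). In fru330035 against fru105005, 16 of 75 were called higher and 41 lower, beside 28.6% and 27.9%, with a median of −0.32. Under library size alone they were 26 and 25, with a median of −0.00 beside 0.33 over all genes. In fruTrip against fru105005, 18 of 76 were called higher and 31 lower, beside 18.0% and 18.4%, with a median of −0.14, and 14 and 35 under library size alone. The 18 higher calls became 8 without fru105005 replicate 1, 11 without fruTrip replicate 1 and 11 with DESeq2. Cyp6w1, Cyp6a2 and the Cyp12d1 pair were among the members higher in fru105005 than in either of the other lines.

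Replicates 1 and 2 of fruTrip and fru105005 were compared gene by gene, because the gut list separated them. The gut genes had a median log2 ratio of replicate 2 to replicate 1 of 3.13 in fruTrip, with 32 of 33 above 0, and 2.43 in fru105005, with 30 of 33 above 0. P450 members with at least 50 counts in either library, 67 in each line, had medians of −0.02 and −0.03. Their range was −1.27 to 0.79 in fruTrip and −0.51 to 0.87 in fru105005. Beyond 0.5 in either direction lay only Cyp4p2 (−1.27), Cyp6a19 (−0.65) and Cyp4d1 (0.79) in fruTrip, and Cyp304a1 (−0.51) and Cyp4ad1 (0.87) in fru105005. The SD of the members' log2 ratios was 0.24 and 0.19 in these lines, 0.19 in Ctrl, 0.12 in fru330035 and 0.11 in fruBOE, while over all genes it was 0.55, 0.48, 0.39, 0.30 and 0.36, respectively.

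**Figure D5:**
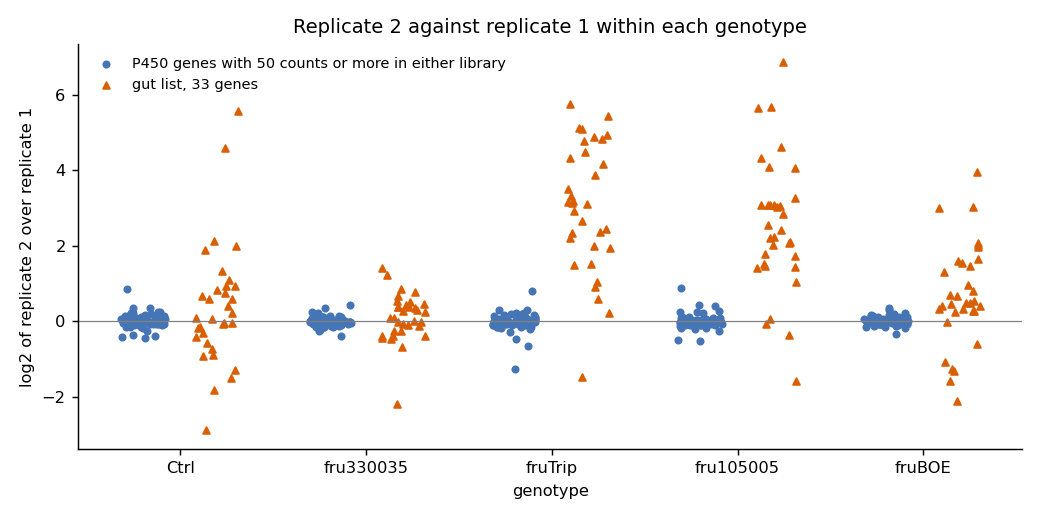
Log2 ratio of replicate 2 to replicate 1 (vertical axis) within each genotype, for P450 genes with at least 50 counts in either library (circles) and the 33 genes of the gut list (triangles). The gut genes lie mostly above 0 in fruTrip and fru105005 (medians 3.13 and 2.43) and the P450 genes lie around 0.

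The calls were much the same without replicate 2, which had the higher gut sum in fruTrip and fru105005. Gut, fat body and Malpighian tubule sums were above Ctrl in both replicates of these lines. The gut sum of replicate 1 was 216 in fruTrip and 218 in fru105005, beside 156 and 182 in Ctrl. The median fat body gene of fruTrip stood near Ctrl (log2 fold change −0.01). The part of any of these tissues in the calls was not tested. Without replicate 2 of fruTrip, 46 members were called higher and 8 lower, of which 45 and 7 were also called with both replicates. Without replicate 2 of fru105005 the counts were 45 and 6, and all of them were also called with both. Without replicate 1 they were 44 and 9 in fruTrip and 48 and 4 in fru105005, so the count of lower calls in fru105005 went from 8 to 4. The medians stayed between 0.52 and 0.54 in fruTrip and between 0.67 and 0.71 in fru105005.

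The electron donors and heme enzymes that P450s depend on moved in both directions. Of 13 such genes found, 6 were called higher and 6 lower in fru330035, 5 and 5 in fruTrip, 7 and 4 in fru105005, and 5 and 6 in fruBOE. Over all genes tested the shares called higher and lower were 31.7% and 30.6%, 26.0% and 23.9%, 26.0% and 26.7%, and 31.4% and 33.7%. The median log2 fold changes of the 13 genes were 0.01, 0.09, 0.13 and −0.10, and the difference from the P450 genes was not tested. Cpr, the NADPH-P450 reductase, had a mean of 2534 in Ctrl (SD 7.78, n = 2), 2151 in fru330035, 2167 in fruTrip, 2796 in fru105005 and 1793 in fruBOE (log2 fold changes −0.21, −0.21, 0.15 and −0.70). Cyt-b5 fell in all 4 comparisons (−1.41, −0.50, −0.66 and −0.79), from 8535 in Ctrl to 3185 in fru330035. Alas, which starts heme synthesis, fell in fruBOE from 2690 to 501 (−2.55, SE 0.017, adjusted p = 2.4e-17), while FeCH, which ends it, rose there (0.99) and in fru330035 (1.32).

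A list of 8 genes taken as regulators of the xenobiotic response held cnc, Keap1, maf-S, Hr96, ss, tgo, Hr38 and Hsf. Of these, 1 was called higher and 5 lower in fru330035, 3 and 3 in fruTrip, 1 and 4 in fru105005, and 1 and 6 in fruBOE. The single higher call was Hr38 in fru330035 (1.54) and Hsf in fru105005 (0.19) and fruBOE (0.30). The shares called higher and lower over all genes tested were 31.7% and 30.6%, 26.0% and 23.9%, 26.0% and 26.7%, and 31.4% and 33.7%. The gene ss, which encodes the fly homologue of the aryl hydrocarbon receptor, fell in all 4 comparisons (−2.64, −1.96, −2.17 and −1.95), from a mean of 4.39 to between 0.703 and 1.30. The gene cnc, which encodes the homologue of Nrf2 and drives many detoxification genes, fell in fru330035 (−0.47, SE 0.02, adjusted p = 5.6e-11) and fruBOE (−0.18) and was not called in fruTrip (−0.02, adjusted p = 0.61) or fru105005 (−0.03, adjusted p = 0.26).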

How the data were processed

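Per the labels and the study's methods, the authors trimmed reads with fastp (0.22.0), mapped them with Bowtie2 to the dme6 build and quantified genes with RSEM (1.2.31). The authors deposited expected counts, TPM and a TMM table from edgeR (3.36.0), whose other values are, as tested here, TPM times 1 constant per library. The annotation release was not given in the sources used here. Symbols came from the BDGP6.54 annotation, for 13983 of 13986 genes.

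Expected counts were rounded and tested with edgeR's quasi-likelihood test (4.0.16, R 4.3.3) after TMM scaling and the default low-count filter (10 counts, 15 in total), in the 4 libraries of each of 7 comparisons, with Benjamini-Hochberg adjustment over all genes tested. The SE printed beside a log2 fold change is approximate, and it is too small for some large changes with few counts in a group. For Cyp4p2 in fru330035 it was 0.052, less than counting noise allows with 65 and 63 counts in Ctrl. The SE of such a change is not a measure of its precision. Genes were called below an adjusted p of 0.05, and DEGs had 0.001 or less and a change of 4-fold or more. Replicate ratios used CPM computed here with a prior count of 2. The fit was tested on simulated data. Totals of 23415354 to 46840820 counts limit what low genes can show. Replicates differed by more than counting noise (chi-square per gene 2.05 to 6.66), so none was a copy of the other's counts. This value cannot show whether replicates came from separate flies.

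Alternatives were DESeq2 (1.42.0), library size alone, other filters, dispersion from all libraries, a replicate block, limma (3.58.1) on log2 TMM values plus 1 or plus 0.1, and each library left out. Named genes were the 6 highest in Ctrl, 8 with known roles, per comparison with Ctrl the 4 largest rises and falls with a mean of at least 50 counts, every DEG, and the 5 largest and 3 smallest replicate ratios in fruTrip and fru105005. Members of the same subfamily or run were added after their values were seen. Members and lists were chosen with earlier results of these data known. The list of electron donors and heme enzymes had 15 symbols, of which 13 were found. Cyp1, Cyp40, Cyp4g1, Cyp4g15 and Cyp18a1 were left out as members.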

Additional observations from a re-analysis of the deposited data

Results flagged for a closer look

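These members were called in opposite directions against Ctrl in a pair of hairpin lines, and the direct comparison of the lines by edgeR's quasi-likelihood test also called the difference. Each value is a log2 fold change of the first line over the other.

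Between fru330035 and fruTrip, Cyp4d21 differed by 2.41 (0.56 and −1.84 against Ctrl, adjusted p of the difference 1.3e-07) and Cyp4d1 by 2.04 (1.2 and −0.82, adjusted p = 0.00014). Cyp12d1-p differed by −2.06 (−0.61 and 1.46, adjusted p = 6.8e-08) and Cyp6a23 by −2.05 (−0.18 and 1.88, adjusted p = 6.7e-08). The opposite calls of Cyp4d1 and Cyp6a23 rested on changes against Ctrl, of −0.82 and −0.18, that were lost without either Ctrl library.

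Between fru330035 and fru105005, Cyp6w1 differed by −2.73 (−0.99 and 1.73, adjusted p = 9.1e-11), Cyp6a8 by −3.17 (−0.82 and 2.33, adjusted p = 3.9e-10), Cyp12d1-p by −2.54 (−0.61 and 1.91, adjusted p = 1.3e-09) and Cyp6t3 by −2.20 (−0.48 and 1.71, adjusted p = 7.7e-08). Cyp12d1-d had a fitted difference of −16.13 (adjusted p = 2.8e-10), which is no measure of size, since both fru330035 libraries held 0 counts.

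Between fruTrip and fru105005, Cyp6w1 differed by −2.49 (−0.75 and 1.73, adjusted p = 4.7e-08) and Cyp4d20 by −3.12 (−1.0 and 2.11, adjusted p = 2.2e-06). The fitted difference of Cyp12d1-d was −10.66 (adjusted p = 3.6e-06), with 0 and 7 counts in fruTrip.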

How the results depend on the processing

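Of 1466 alternative values for 123 single-gene results, 1419 kept their direction and side of the threshold, 37 lost the call, 7 gained one and 3 reversed, all under library size alone: Cyp28d1 (0.08) and Cyp6a23 (0.04) in fru330035 and Cyp6w1 in fruBOE (0.08). The causes were not tested, and genes with few counts, such as Cyp316a1, Cyp4c3 and the Cyp313a genes, are limited by depth.

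Under library size alone the members' medians against Ctrl were 0.49 in fru330035, 0.39 in fruTrip, 0.62 in fru105005 and 0.66 in fruBOE, with 15 members lower in fruTrip and 7 in fruBOE. For fru330035 against fruTrip that scaling gave 36 higher, 21 lower and a median of 0.13, against fru105005 26, 25 and −0.00, and for fruTrip against fru105005 a median of −0.21. With limma on TMM values plus 1 the medians were 0.19 in fru330035, 0.45 in fruTrip and 0.48 in fru105005, and −0.23 in fru330035 against fru105005. With plus 0.1 they were 0.26 in fru330035, 0.59 in fruBOE and −0.25 in fru330035 against fru105005. Lower calls by limma were 4 in fru105005 and 7 in fruBOE at either pseudocount. DESeq2 gave 2 lower calls in fru105005 and 11 higher in fruTrip against fru105005. With no filter beyond 1 count the medians were 0.30 in fru330035 and 0.54 in fruTrip, and where every library had to hold 10 counts or more 0.31 in fru330035. From TPM without scaling the summed levels were 1301 in Ctrl, 2102 in fru330035, 1615 in fruTrip, 3077 in fru105005 and 1964 in fruBOE.

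With each library left out in turn, lower calls in fru105005 were 3 to 6 and the medians were 0.29 to 0.35 in fru330035, 0.52 to 0.54 in fruTrip, 0.67 to 0.73 in fru105005 and 0.33 to 0.48 in fruBOE. In fru330035 against fru105005 the median was −0.29 to −0.24. In fruTrip against fru105005 the higher calls were 8 to 14 and all calls 31 to 39, with 8 and 31 without fru105005 replicate 1.

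Replicate numbers were not taken to pair libraries, since same-numbered deviations correlated between −0.0238 and 0.473 over 12062 genes, the highest for fruTrip and fru105005. With the replicate block 54, 55, 57 and 56 members were called against Ctrl in fru330035, fruTrip, fru105005 and fruBOE, where the fit without it called 55, 56, 58 and 55.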
